A study of Macaca fascicularis with 8 samples.

Results

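In the single-cell chromatin accessibility (scATAC-seq) data of 7 cynomolgus monkey organs, 13103 of 245443 accessible regions, or 5.34%, had a peak in colon and in spleen and in none of heart, kidney, male liver, lung and uterus. The regions were obtained by merging the 7 peak lists wherever peaks overlapped by at least 1 bp. They were therefore selected on the presence and absence of peak calls in the same libraries, and that pattern is a description and not a finding. A second liver library, from the female monkey, took no part in the choice.

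The study profiled adult monkeys labelled normal, 1 female and 1 male, without any treatment. Colon, heart, lung, uterus and one liver library came from the female, and kidney, spleen and the other liver library from the male. Each of the 8 libraries was thus 1 organ of 1 animal, so organ, animal and library are not separable and cannot be told apart, and all intervals below cover counting error only. The 12404 colon barcodes had a median of 7446 counts in peaks and the 20019 spleen barcodes a median of 2276, each barcode standing for a droplet with at least 1000 counts. Colon and spleen had 362 barcode sequences in common, and their rate per possible pair of barcodes lay within the range of the other pairs of libraries. Likely doublets, droplets holding more than 1 nucleus, were kept unless stated.

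An accessible region is a stretch of DNA that is not packed by nucleosomes and that the transposase of the assay can therefore cut. Promoters and enhancers are the best known examples, and many enhancers are open in only a few cell types. The spleen is a lymphoid organ made up largely of B cells, T cells and macrophages within a vascular stroma. The wall of the colon combines an absorptive and mucus-secreting epithelium with smooth muscle, vessels, nerves and a large resident population of lymphocytes and plasma cells. No genome or gene annotation of the assembly of the peaks was used here, and regions are named by their deposited positions. For the same reason cell clusters were not given cell type names, and the labels of colon and spleen were not checked against marker genes.

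Among the 21 pairs of organs, colon and spleen shared the most regions that no other organ had. The second pair, kidney and male liver, shared 11140 such regions, and the third, colon and kidney, 2569. The regions of colon and spleen made up 21.9% of the 59946 regions with a peak in both organs. They held 12.1% of all colon peaks and 14.7% of all spleen peaks. Of the 7 lists, the shortest, that of uterus, had 37159 peaks, and the longest, that of male liver, 110993. With every list limited to its 37159 peaks with the most counts, colon and spleen still ranked first with 5815 regions, ahead of kidney and male liver with 2896.

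**Figure D1:**
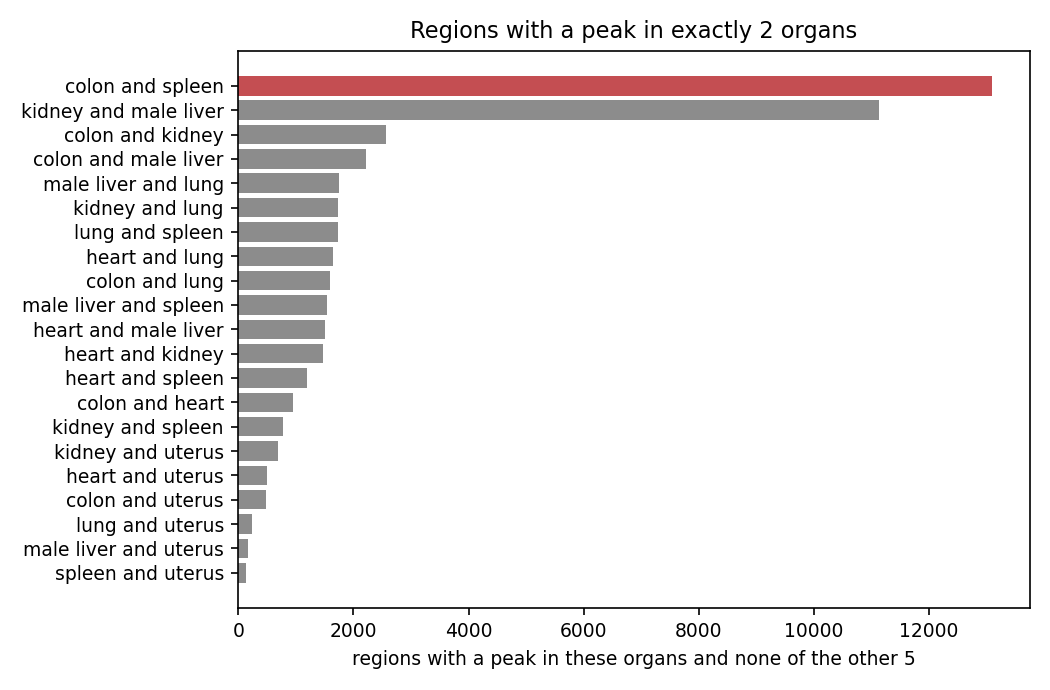
Number of merged regions (x axis) with a peak in exactly the named pair of organs and in none of the other 5, for all 21 pairs (y axis). The bar of colon and spleen reaches 13103 regions, that of kidney and male liver 11140, and no other pair exceeds 2569.

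The colon and the spleen peak of a shared region lay nearly on top of each other. Of the 13103 regions, 12798 consisted of a single colon peak and a single spleen peak. The centres of these peaks were a median of 27.8 bp apart, and in 74.7% of these regions the overlap covered at least 50% of both peaks. In 57.5% of them the spleen peak lay entirely inside the colon peak, and in 24.9% the reverse was the case. The regions had a median width of 574 bp, against 399 bp for regions with a peak in colon alone and 307 bp for those in spleen alone. Regions open in all 7 organs were wider, with a median of 2018 bp. Merging the peaks of several lists itself widens a region. Regions of kidney and male liver only had a median of 576 bp. In the 12798 regions, the colon peak alone had a median of 530 bp and the spleen peak 442 bp.

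By the rule, no shared region touched a peak of the other 5 organs. The median distance to the nearest such peak was 3148 bp, and 834 regions had one within 500 bp. These distances were not compared with those of another set of regions. At the edge of the rule, 124 regions had a peak of another organ at most 100 bp away without touching it. Their median level was 3.58 CPM (counts per region, scaled so that all libraries have the same total of counts in peaks) in colon and 2.63 in spleen. Just outside the rule, 689 regions with colon and spleen peaks touched a peak of 1 further organ by at most 100 bp, and had median levels of 3.74 CPM in colon and 3.69 in spleen.

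The shared regions together held similar parts of both libraries. They took 67664 CPM in colon (95% interval 67595 to 67733) and 62051 in spleen (61962 to 62141), or 6.77% and 6.21% of all counts in peaks. A single region had a median of 3.30 CPM in colon, from 0.597 at the 5th to 16.2 at the 95th percentile. In spleen the median was 3.17 CPM, with 0.587 and 13.9 at the same percentiles. These were ordinary peaks by their level: the median shared region sat at percentile 51.9 of all colon peaks and at percentile 45.2 of all spleen peaks. In the deposited barcodes, 21 of the regions had no count in colon and 46 none in spleen.

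Across the 13103 regions, the log2 levels of colon and spleen correlated with Pearson's r of 0.50 and Spearman's rho of 0.53. Region width enters both levels, and regions are not independent replicates. The same correlation was 0.87 across the regions with a peak in all 7 organs and 0.62 across those of colon, lung and spleen only. The levels differed by less than 2-fold for 8261 regions. They were at least 2-fold higher in colon for 2593 and at least 2-fold higher in spleen for 2249.

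The region with the highest lower value of both organs was chr12:22666470-22668245, with 58.9 CPM in colon (56.9 to 60.9) and 80.7 in spleen (77.5 to 84.0). Counts fell in 17.4% of colon barcodes and 10.4% of spleen barcodes there. Next came chr1:35771213-35774773, with 63.4 CPM in colon and 56.1 in spleen. Another of the 10 strongest regions lay close by, at chr1:35740014-35745903, and had the highest colon level of all 13103 regions, 85.0 CPM, against 44.2 in spleen. The widest of all 13103, chr11:10031901-10040636 with 8736 bp, had 75.4 CPM in colon and 47.1 in spleen. The 10 strongest regions lay between 42.2 and 85.0 CPM in colon and between 43.6 and 80.7 in spleen. All of them also had a peak in the female liver, against 62.2% of all 13103. They were 1776 to 8736 bp wide, against a median of 574 bp, and the part of width was not tested.

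On the chromosomes, the shared regions were unevenly spread and often lay in runs. They were 28.3% of the regions with colon and spleen peaks on chromosome X and 11.3% of those on chromosome 19, the highest and the lowest share of any chromosome. Of the regions of any organ, they were 6.99% on chromosome X, again the highest share, and 4.57% on chromosome 19. By that measure chromosome 15 was lowest, at 4.47%, against 5.34% over all chromosomes. Colon came from the female and spleen from the male, so that the X chromosome differs in copy number between these libraries, and the part of this in the share was not tested. In all, 4168 regions, or 31.8%, lay in 961 runs of at least 3 with no more than 20000 bp between neighbours. The share was 19.7% with gaps of up to 10000 bp and 55.1% with gaps of up to 50000 bp. For kidney and male liver, the pair with the next most regions, the share in runs was 16.1%. The density of regions differed between both pairs and was not matched.

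The longest run, chrX:18535781-18619742, held 18 of the 24 accessible regions of any organ in its span. A female liver peak was present at 16 of the 18, against 62.2% of all shared regions. The 18 regions summed to 109 CPM in colon and 81.8 in spleen. The next runs were chr17:80751172-80837750 with 17 shared regions and chr1:56213249-56290915 with 16. The runs at chr10:29676328-29779790 and chr12:118547956-118653381 held 15 each. In these runs a female liver peak was present at 12 regions on chromosome 17, 16 on chromosome 1, 10 on chromosome 10 and 8 on chromosome 12. The run on chromosome 12 was stronger in spleen, at 162 CPM against 81.2 in colon.

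Colon cells differed widely in their use of the shared regions, whereas spleen cells formed a single broad distribution. In colon, the share of a barcode's counts that fell in the regions had a median of 6.18%, with 1.31% at the 5th and 11.3% at the 95th percentile. A share under 3% was found in 33.3% of colon barcodes, a share from 3% to 5% in 7.44% and a share of at least 5% in 59.3%. In spleen the median was 6.39%, and 2.27% of the barcodes were under 3%. Spleen barcodes were shallower, with a median of 2276 counts against 7446, and the part of depth in the shape was not tested. The bounds of 3% and 5% were set after the distribution was seen.

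**Figure D2:**
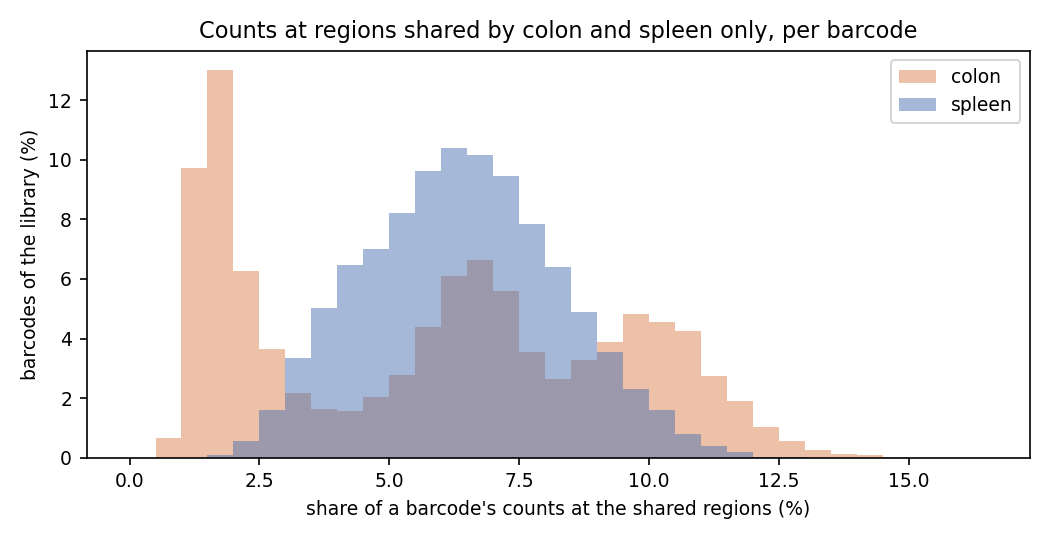
Share of each barcode's counts that fell in the regions shared by colon and spleen only (x axis, percent), as percent of the barcodes of the library (y axis). Colon barcodes form several separate peaks, with 33.3% of them under 3%, and spleen barcodes 1 broad peak around the median of 6.39%.

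A barcode's share on one set of chromosomes went with its share on another. Across the 12404 colon barcodes, the share on odd-numbered and the share on even-numbered chromosomes correlated with Pearson's r of 0.96, and across the 20019 spleen barcodes with 0.70. Both shares come from the same barcode and depth. Barcodes in the top quartile on odd-numbered chromosomes had 49323 CPM in the shared regions of even-numbered chromosomes in colon, 6.68-fold the 7381 in the bottom quartile. In spleen the corresponding values were 38409 and 20308, or 1.89-fold. Colon barcodes in the top quartile were deeper (median of 11766 counts) than those in the bottom quartile (5915), whereas spleen barcodes in the top quartile were shallower (2131) than those in the bottom quartile (2477). The part of depth in the result was not tested.

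To ask which cells carry the shared regions, the cells of each organ were clustered on regions with a peak in all 7 organs, a set that contains none of the shared regions. The 16 colon clusters ranged from 20343 to 106417 CPM in the shared regions, a 5.23-fold range. The 8 spleen clusters ranged from 42594 to 82571, a 1.94-fold range. In colon the clusters fell apart into levels. Clusters 1, 5 and 8 had between 96865 and 106417 CPM, and clusters 3, 6, 7 and 11 between 65694 and 68972. Clusters 16 and 13 had 56231 and 45358, and the remaining 7 clusters between 20343 and 30199.

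The colon cells richest in regions of colon alone were poor in the regions shared with spleen. Clusters 2, 9 and 10 had from 121727 to 128069 CPM in the regions with a peak in colon alone, and between 20343 and 25387 in the shared regions. Cluster 8 showed the reverse, with 97866 CPM in the shared regions and 21965 in the colon-only regions. Cluster 1 was high in both, with 106417 and 67332. Clusters 4, 12, 14 and 15 were low in both, with no more than 30199 in the shared and 33553 in the colon-only regions.

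**Figure D3:**
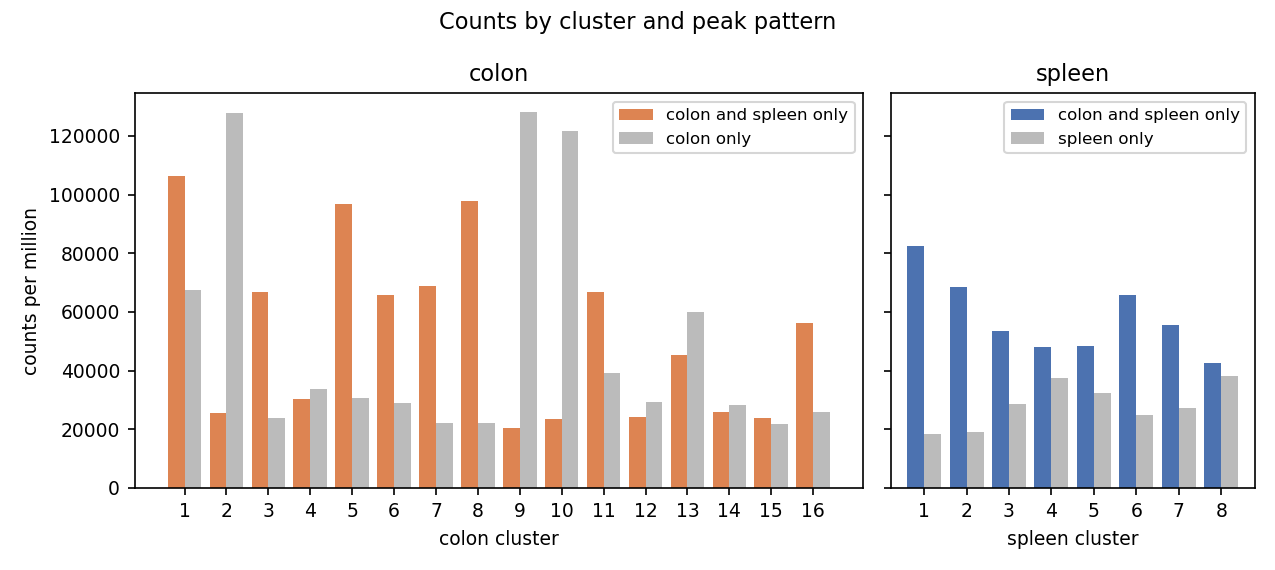
CPM (y axis) in the regions shared by colon and spleen only (coloured bars) and in the regions with a peak in that organ alone (grey bars), for each colon cluster (left) and each spleen cluster (right) on the x axis. In colon, clusters 2, 9 and 10 have grey bars of at least 121727 and coloured bars of at most 25387, and in spleen every coloured bar is higher than the grey one.

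The spleen clusters were ordered differently. Cluster 1, with 5279 barcodes, was highest in the shared regions at 82571 CPM, followed by cluster 2 with 4487 barcodes at 68420. Clusters 3, 4 and 5 had from 48007 to 53595. Cluster 8, the lowest, had 42594, and the simulated doublet score marked 50.9% of its barcodes as likely doublets. Cluster 7 consisted almost wholly of likely doublets (96.7%), with a median of 11099 counts per barcode.

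The windows that the study displays around JCHAIN and EGFL7 were also read, as positions rather than as genes. In the gene table at hand, which belongs to another assembly, both genes lie outside these positions, and no annotation of the assembly of the peaks was used to check them. JCHAIN encodes the chain that joins the units of secreted IgA and IgM, and EGFL7 a protein secreted by endothelial cells. Counts in the whole JCHAIN window were highest in colon clusters 11 (363 CPM), 1 (362), 5 (327) and 8 (292), and in spleen cluster 1 (251). Clusters 1, 5 and 8 of colon and cluster 1 of spleen were also those with the highest CPM in the shared regions. Colon cluster 11 was not: it had 66800 CPM there, close to clusters 3, 6 and 7, whose JCHAIN window values were between 127 and 172 CPM. Counts in the EGFL7 window were highest in colon clusters 15 (540 CPM) and 14 (472) and in spleen clusters 4 (488) and 8 (377). Colon clusters 15 and 14 had 23668 and 25749 CPM in the shared regions, and spleen clusters 4 and 8 had 48007 and 42594, the lowest values of spleen.

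No shared region lay in the EGFL7 window, which held 11 accessible regions of any organ, and 2 of the 25 regions in the JCHAIN window were shared by colon and spleen only. The region chr5:63543200-63544162 had 7.49 CPM in colon (6.78 to 8.24) and 14.3 in spleen (13.0 to 15.7). It was highest in colon cluster 8, at 20.5 CPM, and in spleen cluster 1, at 25.6. The second region, chr5:63603488-63604887, had 12.4 CPM in colon (11.5 to 13.3) but 2.68 in spleen (2.13 to 3.34). It reached 51.6 CPM in colon cluster 11 and 30.7 in colon cluster 1, whereas spleen cluster 1, the highest of spleen, had 3.99.

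Cells of one organ with many neighbours from the other organ had higher CPM in the shared regions than its other cells. For each cell, the 50 nearest cells of the other libraries were found on the regions open in all 7 organs, with 5000 cells drawn from each library. The 1778 colon cells with at least 50% spleen cells among their neighbours had 85964 CPM in the shared regions, against 65664 in the other colon cells. The fold was 1.31 (1.305 to 1.313 by counting error). The near cells were shallower, with a median of 4836.5 counts against 7986. Of colon clusters 7, 3 and 6, whose profiles were closest to spleen cluster 2, 2.16%, 0% and 28.4% of the cells were near spleen. In colon cluster 13, with 45358 CPM in the shared regions, 55.2% were near spleen. Lung took 48.8% of all neighbours of colon cells and spleen 17.7%. With lung left out of the neighbours, an alternative chosen after the data were seen, 4808 colon cells were near spleen, and the fold was 2.14. With each cell thinned to about 1000 counts before the neighbours were found, it was 2.04. The level was not highest in the colon cells nearest to spleen: it was 58156 CPM with under 20% spleen neighbours, 95184 with 20% to 40% and 85786 with at least 80%.

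In spleen, 11925 cells had at least 50% colon cells among their neighbours. They had 69750 CPM in the shared regions, 1.37-fold the 51003 of the other spleen cells. The level was 41774 CPM in spleen cells with under 20% colon neighbours, 72521 in those with 60% to 80% and 71350 in those above 80%. By the single region, the difference was spread over many. Of the 6220 shared regions with at least 200 counts in spleen, 1277, or 20.5%, were at least 2-fold higher in the colon-near cells, and 31 (0.498%) were at least 2-fold lower. Over all 47758 spleen peaks with this depth, 4.56% were at least 2-fold higher and 6.23% at least 2-fold lower. In colon, 865 of the 9776 shared regions with at least 200 counts, or 8.85%, were at least 2-fold higher in the spleen-near cells, against 4.46% of 73496 colon peaks. There 862 shared regions (8.82%) and 15.8% of all colon peaks tested were at least 2-fold lower.

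The clusters of both organs were then matched by their profiles over the regions open in all 7 organs, again without using the shared regions. Of all combinations, 5 were each other's best match: colon cluster 7 with spleen cluster 2, 8 with 1, 16 with 3, 4 with 5 and 15 with 4. For each cluster, the log2 fold of every shared region over the other cells of its organ was computed, and the folds of colon and spleen clusters were correlated across the 5547 shared regions with at least 200 counts in each library. Pearson's r was 0.79 for colon cluster 7 and spleen cluster 2, 0.72 for 8 and 1, and 0.55 for 16 and 3. It was 0.21 for clusters 4 and 5 and 0.10 for 15 and 4. Over the regions used for matching, the same combinations had 0.68, 0.64, 0.57, 0.62 and 0.48, in this order. Colon clusters 4 and 15 had 30199 and 23668 CPM in the shared regions, near the low end of that organ. The median over the 5 matched pairs was 0.55, and that over the other 123 combinations was 0.03. Regions lie side by side on the chromosomes and share their libraries, so these values are descriptions.

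Some unmatched combinations with spleen clusters 1 and 2 also had high correlations, below those of the match of the same spleen cluster. Colon clusters 3 and 6 correlated with spleen cluster 2 at 0.77 and 0.76, and colon clusters 1 and 5 with spleen cluster 1 at 0.69 and 0.57. Each spleen cluster can have a single best match, and these colon clusters came after clusters 7 and 8. For spleen cluster 4 the match was not the highest. Its matched colon cluster 15, at 0.10, lay below the unmatched colon clusters 14 (0.126), 2 (0.108) and 10 (0.107). Folds were taken over all other cells of an organ, and spleen clusters 1 and 2 held 5279 and 4487 of the 20011 clustered barcodes, so each is a large part of the other's reference and negative values are partly built in. Colon cluster 7 correlated with spleen cluster 1 at -0.71, and colon cluster 8 with spleen cluster 2 at -0.70.

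**Figure D4:**
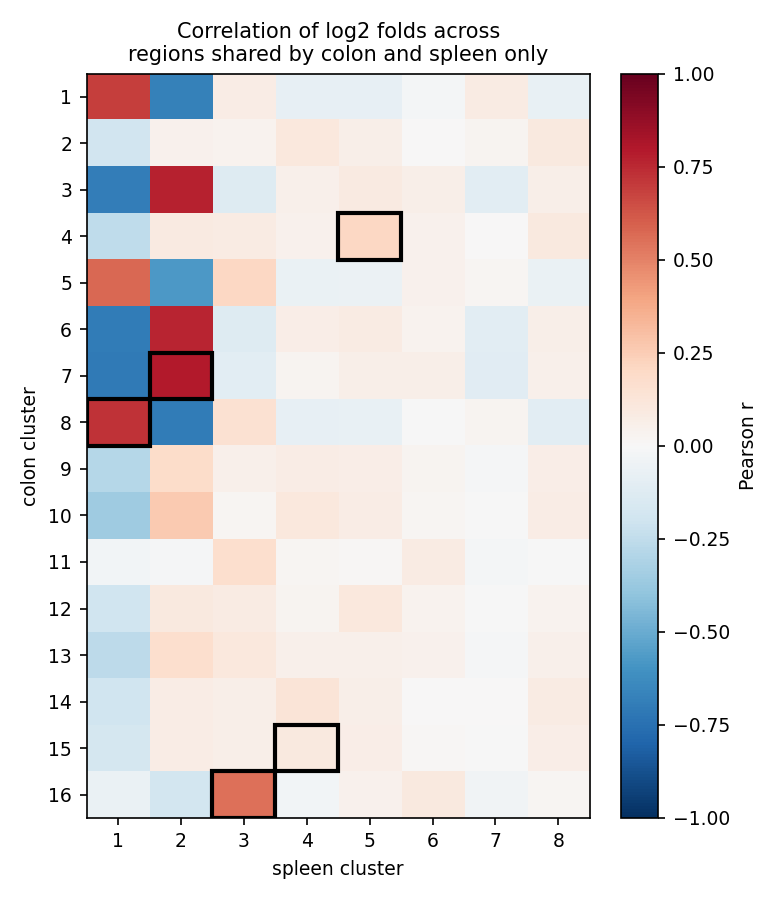
Pearson correlation (colour) between the log2 folds of colon clusters (y axis) and spleen clusters (x axis) across the 5547 shared regions with at least 200 counts in each organ, with the 5 matched combinations framed. Colon clusters 3, 6 and 7 are positive with spleen cluster 2 and negative with spleen cluster 1, and colon clusters 1, 5 and 8 show the opposite.

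For each of the 5 matched combinations, the regions higher in the spleen cluster were higher in its colon match more often than all regions compared. Of the regions with at least 200 counts in both organs, 1171 were at least 2-fold higher in spleen cluster 2 than in other spleen cells, and 932 of them, or 79.6%, were also at least 2-fold higher in colon cluster 7 than in other colon cells. Of all 5547 regions compared, 24.8% were higher in colon cluster 7. These 932 were 67.6% of the 1378 regions that were higher in colon cluster 7, and 4 regions were higher there but at least 2-fold lower in spleen cluster 2. For spleen cluster 1 and colon cluster 8, 1195 regions were higher in both, which was 68.4% of the 1747 spleen regions and 51.9% of the 2301 colon regions, while 41.5% of all 5547 were higher in colon cluster 8. For spleen cluster 3 and colon cluster 16, 146 were higher in both, which was 77.7% of the 188 spleen regions and 18.0% of the 813 colon regions, while 14.7% of all 5547 were higher in colon cluster 16. For spleen cluster 5 and colon cluster 4, 13 of 39 spleen regions (33.3%) and of 53 colon regions (24.5%) were higher in both, while 0.955% of all 5547 were higher in colon cluster 4. For spleen cluster 4 and colon cluster 15, 7 of 60 spleen regions (11.7%) and of 65 colon regions (10.8%) were higher in both, and 5 were higher in the colon cluster but lower in the spleen cluster. Of all 5547, 1.17% were higher in colon cluster 15. Colon clusters 15 and 16 held 186 and 164 barcodes, so many single regions had few counts there.

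Against all peaks, a larger share of the shared regions was higher in the clusters of the first 2 matches and a smaller share in those of the last 2. In colon cluster 7, 2486 of the 9776 shared regions, or 25.4%, were at least 2-fold higher, against 10.2% of all colon peaks tested. In the same cluster 49.7% of the shared regions and 49.2% of all peaks were at least 2-fold lower, and the median shared region was at 0.511-fold. In spleen cluster 2 they were 1336 of 6220, or 21.5%, against 6.67% of all spleen peaks tested, and 6.41% were lower, against 17.6%. In colon cluster 8 they were 3174, or 32.5%, against 10.3%, and 26.0% were lower, against 42.9%. In spleen cluster 1 they were 1873, or 30.1%, against 7.02%, and 5.08% were lower, against 19.9%.

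In colon cluster 16, 1447 shared regions, or 14.8%, were higher, near the 12.4% of all colon peaks. In spleen cluster 3 they were 278, or 4.47%, below the 10.3% of all spleen peaks. In the remaining clusters few shared regions were higher. They were 146 in colon cluster 4 (1.49%, against 10.9% of all peaks) and 85 in spleen cluster 5 (1.37%, against 8.82%). They were 142 in colon cluster 15 (1.45%, against 11.9%) and 92 in spleen cluster 4 (1.48%, against 10.8%). With 186 barcodes in colon cluster 15 and 164 in cluster 16, many calls there rest on few counts, and the part of this was not tested. More of them were at least 2-fold lower: 71.0% in colon cluster 4 (40.1% of all peaks), 72.5% in colon cluster 15 (44.1%) and 47.0% in colon cluster 16 (39.5%). In spleen they were 10.4% in cluster 5 (6.05%), 10.5% in cluster 4 (6.09%) and 12.03% in cluster 3 (11.1%).

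Each shared region with at least 200 spleen counts was also assigned to a spleen cluster, and the groups were then read in colon. A region's share of a cluster's shared-region counts was divided by that in the other spleen clusters. The cluster with the highest such fold was taken, which sets aside how high a cluster is in the shared regions as a whole. This gave 1703 regions for spleen cluster 1, 1618 for cluster 2, 895 for cluster 3 and between 244 and 721 for each of the others. The group of spleen cluster 2 took 39.2% of the shared-region counts in colon cluster 7 and 13.3% in the other colon clusters, a 2.96-fold difference. The other clusters include colon clusters 3 and 6, in which it took 37.1% and 39.5%. The group of spleen cluster 3 took 18.2% in colon cluster 16 and 6.92% elsewhere, or 2.63-fold. The group of spleen cluster 1 took 38.5% in colon cluster 8 and 24.7% elsewhere, or 1.56-fold. The elsewhere here includes colon clusters 1 and 5, which correlated with the same spleen cluster. The groups of spleen clusters 5 and 4 took 1.93-fold and 1.69-fold more in colon clusters 4 and 15. The matched colon cluster was not always the highest: the group of spleen cluster 2 took more in colon cluster 6 than in cluster 7, and that of spleen cluster 4 took 3.96% in colon cluster 14 against 3.65% in cluster 15.

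For each matched combination, the 3 regions with the highest lower fold of both organs were singled out. The folds of these 15 regions lay between 3.76 and 60.2 in colon and between 3.57 and 8.97 in spleen. The region chr11:122042062-122042664 had 8.77 CPM in colon cluster 8 (6.27 to 11.9) and 1.47 in other colon cells, and 17.6 in spleen cluster 1 (14.6 to 21.1) against 4.67 in other spleen cells. The region chr9:116644318-116644854 had 15.6 in colon cluster 7 (11.9 to 20.2) against 2.28, and 10.3 in spleen cluster 2 (7.74 to 13.3) against 2.21. The region chr6:63381272-63381809 had 23.6 in colon cluster 16 (12.9 to 39.6) against 1.97, and 19.9 in spleen cluster 3 (15.8 to 24.9) against 4.87.

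These 3 regions were chosen for high folds in both organs, so intervals clear of the level of the other cells follow from the choice. By the lower fold of both organs the first was chr5:86833429-86834252, with 24.4 CPM in colon cluster 4 (18.5 to 31.6) against 1.14 in other colon cells, and 17.5 in spleen cluster 5 (13.5 to 22.3) against 1.95. The highest colon fold was that of chr14:14777144-14777554, with 31.8 CPM in colon cluster 4 against 0.528 in other colon cells (0.351 to 0.763). In spleen it had 13.2 CPM in cluster 5 (9.73 to 17.4) against 2.03 in other spleen cells. This region had 206 counts in colon, just above the minimum of 200 over all colon cells. Its level in the other cells was so low that it passed this minimum only through cluster 4. The size of its colon fold is therefore partly built in. It had 203 counts in spleen, and chr5:86833429-86834252 had 236 in colon and 231 in spleen. In spleen, chr9:116644318-116644854 had 219 counts, and in colon, chr11:122042062-122042664 had 229. These too passed the minimum only with the counts of the cluster in which they were high, so these folds are also partly built in. Others of the 15 were likewise close to the minimum. The region chr16:63954006-63954615 had 15.9 in colon cluster 15 (8.44 to 27.1) against 2.30, and 22.4 in spleen cluster 4 (18.1 to 27.4) against 3.71. Clusters 15 of colon and 4 of spleen were both high in the EGFL7 window. All of these regions were chosen for their folds, which are therefore descriptions.

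Of the 10 strongest regions, 9 were highest in spleen cluster 1 and in colon cluster 1 or 8. Of all shared regions with at least 200 spleen counts, 27.4% were in the group of spleen cluster 1, which was set by relative share and not by CPM. At least 2-fold higher in spleen cluster 1 than in other spleen cells were 30.1% of the shared regions of this depth. The 10 were chosen by their level in the whole library, to which cluster 1 of each organ adds most, so the 9 of 10 is partly built in. The exception was chr11:10031901-10040636, which was highest in spleen cluster 2 (90.3 CPM) and in colon clusters 6 (147) and 3 (139). The strongest, chr12:22666470-22668245, had 149 CPM in colon cluster 8 (138 to 161) and 159 in spleen cluster 1 (150 to 169). In colon it fell to 4.65 in cluster 14, and in spleen to 38.7 in cluster 8.

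Neighbouring regions on a chromosome tended to belong to the same spleen group. Among the neighbours that both belonged to the group of spleen cluster 1 or 2, 411 of 490 pairs within 20000 bp, or 83.9%, were of the same group. The share was 65.9% of 246 pairs more than 20000 and up to 100000 bp apart and 52.0% of 196 pairs farther apart. Among the 5 longest runs, those on chromosomes 10 and 12 had the highest CPM in spleen cluster 1 and in colon clusters 1 and 8, respectively. The runs on chromosomes X, 17 and 1 had the highest CPM in spleen cluster 2 and in colon clusters 6, 6 and 3. The single regions of a run did not all follow its sum. In the run on chromosome 1, spleen cluster 1 was highest for the most regions (3 of 8 with at least 200 counts). In colon, cluster 8 was highest for the most regions of the run on chromosome 17 (4 of 15) and cluster 11 for those of the run on chromosome X (4 of 16).

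The female liver library, which the choice had not used, had peaks in many of the shared regions, although the male liver by definition had none. A female liver peak overlapped 8146 of the 13103 regions, or 62.2% (61.3% to 63.0%, exact binomial interval). With an overlap of at least 50% of the region required, the share was 42.8%. The share was 12.9% for regions of colon alone, 33.0% for regions of spleen alone and 49.9% for those of kidney and male liver only. It was 68.7% for the regions of lung and spleen only, above that of colon and spleen, and 24.1% for those of colon and lung only. It was 88.5% for the regions of colon, lung and spleen only and 42.6% over all regions. The widths of these sets differed and were not matched. By quartile of the spleen level, the share was 49.0% in the lowest and 77.9% in the highest quartile of the shared regions. The female liver list was the longest, with 165942 peaks from a shallow library, and the female liver and colon came from the same animal. Thus the name colon and spleen only holds for the 7 lists of the rule, and 4957 of the regions had no peak in the female liver either.

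The 728 female liver barcodes with at least 1000 counts had 44704 CPM in the shared regions (44288 to 45122). These counts were unevenly spread over the 5 female liver clusters. Cluster 1, with 249 barcodes, had 73643 CPM (72781 to 74514), and cluster 5, with 67 barcodes, had 66527 (64986 to 68096). Cluster 2, with 174 barcodes, had 5123 (4805 to 5456). Clusters 3 and 4 had 32780 and 12611. The regions of kidney and male liver only showed the opposite order, with 62425 CPM in cluster 2 and no more than 6690 in any other cluster.

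**Figure D5:**
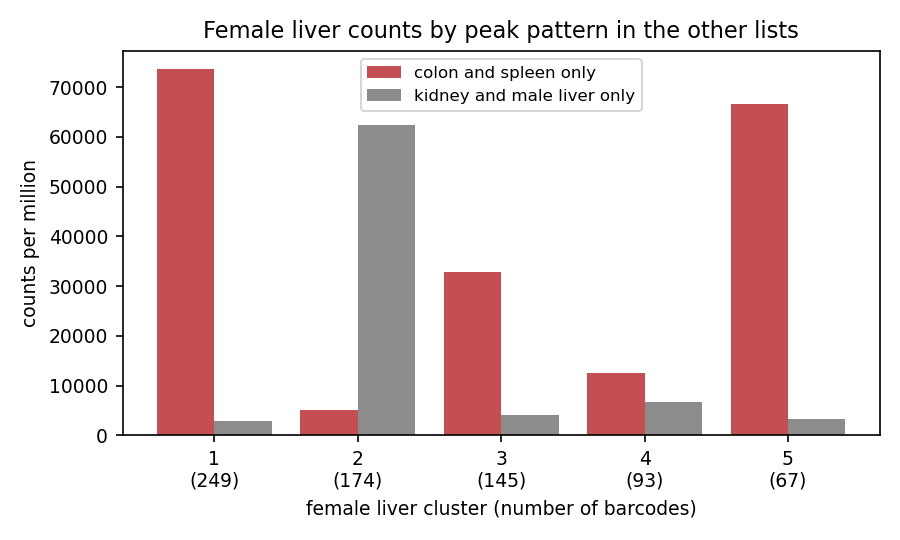
CPM (y axis) in the regions shared by colon and spleen only and in the regions of kidney and male liver only, for the 5 clusters of the female liver library (x axis, number of barcodes in parentheses). Clusters 1 and 5 have 73643 and 66527 in the regions of colon and spleen, and cluster 2 has 5123 there and 62425 in the regions of kidney and male liver.

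Female liver clusters also used different groups of the shared regions. Of the female liver counts at regions grouped by spleen cluster, the group of spleen cluster 2 took 67.9% in female liver cluster 1 (67.2% to 68.5%). In female liver cluster 5 it took 15.8% (14.8% to 16.8%), while the group of spleen cluster 1 took 37.8% (36.5% to 39.2%). In female liver cluster 3 the group of spleen cluster 3 took 41.0% (39.5% to 42.4%). Each of these groups thus had its highest share in a different female liver cluster. A female liver peak was present at 90.2% of the regions in the group of spleen cluster 2, at 81.9% in that of cluster 3 and at 55.9% in that of cluster 1. The regions of the cluster 1 group were the wider and stronger ones, with a median of 841 bp and 8.54 CPM in spleen, against 706 bp and 5.92 for the group of cluster 2.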

How the data were processed

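The authors processed each scATAC-seq library with Cell Ranger ATAC 1.2.0, per the labels, and deposited a peak list, barcodes and an unnormalized matrix with the counts of cut ends for every peak and barcode. The sources used here do not name the assembly of the peaks. The regions and tests were chosen with earlier results of these data known. Named regions were the 10 with the highest lower value of both organs, those in the EGFL7 and JCHAIN windows printed by the study, the 5 runs with most members and, of the 3 strongest per matched pair of clusters, examples.

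Barcodes had at least 1000 counts. Levels are CPM, counts scaled to a library's total in peaks. Poisson intervals (95%) used counts divided by 2, since both ends of a fragment were mostly counted. Cells were embedded by term frequency and inverse document frequency weighting and singular value decomposition (30 components, without those correlated above 0.75 with depth), on regions open in all 7 organs, and clustered by the Leiden method (leidenalg 0.10.2, resolution 0.8, 20 neighbours). Of the 19718 such regions outside chromosome X and both windows, 9626 had at least 2000 counts in colon and 1000 in spleen. Colon and spleen clusters were matched on these 9626, a choice of regions and bounds made after the data were seen. Clusters held at least 1% of the barcodes. Folds used 1 added count. Thinning of the counts on regions open in all 7 organs was binomial, at the rate that gives a cell an expected 1000 counts over all its peaks. Merging, clustering and matching were tested on simulated data. Marker and motif comparisons were not run, since no genome of the assembly was used. Alternatives were other overlaps, minimum counts, resolutions, neighbours, run gaps and doublet removal.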

Additional observations from a re-analysis of the deposited data

Results flagged for a closer look

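The peaks of the female liver library lie outside the lists that chose the regions. They overlapped 8146 of the 13103 regions shared by colon and spleen only, or 62.2%. The rule itself required that the male liver have no peak there. The share was 42.6% over all regions, with or without a male liver peak, and 68.7% for the regions of lung and spleen only, which also lack one. Of the 8348 female liver peaks concerned, 493 had no count in the deposited barcodes. A difference between the liver libraries at these regions is thus built into the rule, and the parts of animal, depth and tissue sampled cannot be told apart.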

How the results depend on the processing

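The number of shared regions depended most on the lists. It fell from 13103 to 3497 with only peaks counted in at least 1% of the barcodes, to 4957 with the female liver list added, to 5213 with the female liver list in place of the male one (liver replicate 2) and to 5815 with lists of equal length; the other overlap rules gave 9590 and 12353. The share with a female liver peak was 58.7% with only peaks that had a count and 42.8% when the overlap had to cover 50% of the region. The share in runs was 19.7% with gaps of at most 10000 bp and 55.1% with 50000 bp. The level in colon was 67827 CPM with at least 2000 counts per barcode and 66671 without likely doublets, and that in spleen 60847 and 63380.

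The fold of spleen-near over other colon cells was 1.28 at 80% of neighbours, 1.24 with 20 neighbours, 1.41 with at least 2000 counts, 1.31 without likely doublets, 2.04 with thinned cells and 2.14 without lung. That of colon-near over other spleen cells was, in the same order, 1.16, 1.34, 1.34, 1.40 and 1.48, and 1.48 without male liver. Leaving out lung, male liver or the barcodes shared by both libraries was chosen after the data were seen. The median correlation over matched clusters was between 0.50 and 0.54, and the fold in colon of the spleen groups between 1.78 and 2.11, under other resolutions, another seed, without likely doublets and without shared barcodes. The cause of the moved values was not tested.

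No paired analysis was possible because colon and spleen have 1 library each, so that they share a single replicate number, and no result comes from a test. Depth limits the values of single regions: 6220 of the 13103 had at least 200 counts in spleen and 9776 in colon, and the female liver had 1978404 counts in 728 barcodes.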
